A study of Mus musculus with 34 samples.

Results

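Tumours from mice given doxorubicin (DRB) together with the Dkk-1 morpholino DkkMo were compared with tumours from mice given DkkMo alone, to ask what the drug adds to the tumour transcriptome once Dkk-1 is blocked. The comparison rested on 8 of the 16 tumours and of the 34 samples of the series, namely 4 labelled combination (numbered 34A, 36A, 38A and 40A in the labels) and 4 labelled DkkMo (24A, 28A, 29A and 31A). All 8 were MOSJ-Dkk1 xenografts in NU/J mice, an athymic nude strain with few mature T cells. MOSJ-Dkk1 is a mouse osteosarcoma line in which a lentiviral vector drives human Dkk-1 from the constitutive cytomegalovirus promoter, so that tumour and host reads both align to the mouse genome and cannot be told apart. DkkMo is a cell-penetrating antisense oligonucleotide (a vivo morpholino) against the human Dkk-1 transcript, and every mouse of both groups received it, the 4 combination mice with DRB in addition. The labels give no age, dose or day of collection for these tumours, and say that the specimens of each group were picked at random. Tumour and stroma were dissected together from fixed carcasses and the RNA was extracted with a protocol for fixed tissue, so fewer cells of a type and less RNA per cell cannot be told apart. The murine Dkk1 gene and the human transgene were not among the genes analysed here, so blockade of the target was not checked.

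Doxorubicin intercalates into DNA and traps topoisomerase II on broken strands. The breaks activate p53, whose targets include the cell cycle inhibitor Cdkn1a and the p53 ubiquitin ligase Mdm2, and the drug also generates reactive oxygen species. Dkk-1 is a secreted inhibitor of canonical Wnt signalling that binds the co-receptors Lrp5 and Lrp6, and in bone it restrains osteoblast differentiation. Gene lists for these processes, for the stress and survival pathways that the study examined and for the host cells that a hindlimb tumour could hold were therefore followed across the 8 tumours.

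The number of reads assigned to the 12595 listed genes ran from 26.9 to 52.1 megareads per tumour in the DkkMo group and from 28.3 to 41.1 megareads in the combination group. Long genes and repeats were prominent in the 8 libraries. Klhl1, a neuronal gene that spans 416367 bases with 6645 bases of exon, held 3.11 to 4.78% of the reads of a tumour, and predicted genes held 21.3 to 32.7%. Across genes the normalised count correlated with the genomic span of the gene (Spearman's rho 0.320 to 0.402 within a tumour, over 12135 genes) and less with its exonic length (0.111 to 0.178), a description with no test since genes are not independent. The predicted genes Gm10800 and Gm10801 held up to 7.62 and 7.64% of the reads, and their read counts differed by at most 2.29% in any tumour. They lie close together on chromosome 2 and share runs of sequence, so their reads cannot be assigned to one or the other with certainty. The stretches below, from the GENCODE M21 transcripts on GRCm38, are shown because they illustrate repeated sequence that is prominent in these libraries. They lie in exon 4 of Gm10800 (chr2:98666766-98666881, minus strand) and exon 1 of Gm10801 (chr2:98662240-98662355, plus strand). The capitals mark the 86 bases that both transcripts hold without a mismatch.
Gm10800: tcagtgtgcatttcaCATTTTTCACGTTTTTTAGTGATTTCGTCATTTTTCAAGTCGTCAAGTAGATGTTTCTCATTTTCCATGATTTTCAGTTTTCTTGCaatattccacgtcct
Gm10801: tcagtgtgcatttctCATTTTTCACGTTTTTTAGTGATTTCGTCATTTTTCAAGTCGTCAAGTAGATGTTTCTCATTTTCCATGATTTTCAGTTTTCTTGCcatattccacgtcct
Neither gene separated the groups. Gm10801 differed by -0.53 in variance-stabilised log2 units (adjusted p 0.94, limma). Between tumours, Spearman's rho over the genes tested was 0.74 to 0.83 within the DkkMo group, 0.77 to 0.85 within the combination group and 0.74 to 0.83 across the groups, so that tumours of different treatment resembled each other about as much as tumours of the same treatment.

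No gene passed the test between combination and DkkMo tumours. Of 12448 genes tested with limma on the variance-stabilised values, 0 reached an adjusted p below 0.05 with a change of more than 1.5-fold, whereas 647 had an unadjusted p below 0.05 (5.2% of those tested). Of these, 300 were higher in the combination group (2.41% of the genes tested) and 347 were lower (2.79%). With limma voom on the recovered reads the count past the threshold was also 0, with 595 genes at an unadjusted p below 0.05, of which 340 were higher in the combination group, so that the majority direction depended on the scale. With voom and the size factors of the deposited table it was 1. The median difference over all genes was -0.02 log2 units and the central 90% of genes lay between -1.18 and 1.11. On this scale a nominal difference of more than 1.5-fold was measured for 4532 genes (36.4%). None of them was separated from the spread between tumours after adjustment. The 95% confidence interval of a gene had a median half-width of 1.36 log2 units. For 7659 genes (61.5%) it lay wholly within 2 variance-stabilised log2 units in either direction, nominally a 4-fold change. For 865 genes (6.95%) it lay within a nominal 2-fold change. The scale understates changes of genes with few reads, so these intervals do not bound the change in counts. For Mmp3 the interval was -1.67 to 0.22, yet its mean normalised count was 44.2 with DkkMo alone and 0 with the combination. In 369 genes (2.96%) the values of the 4 combination tumours did not overlap those of the 4 DkkMo tumours, 174 with the combination group higher and 195 with it lower.

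**Figure D1:**
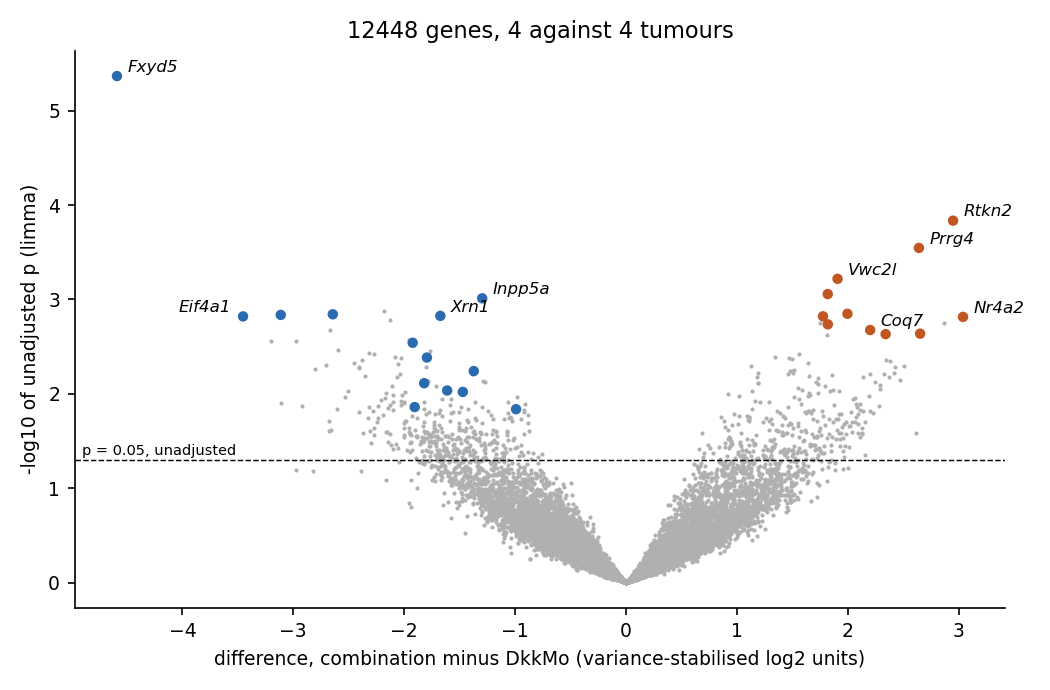
Difference between combination and DkkMo tumours (x axis, variance-stabilised log2 units) against the -log10 of the unadjusted limma p (y axis) for 12448 genes. Each point is 1 gene, orange and blue mark genes described in the text that were higher and lower in the combination group, and the dashed line marks the unadjusted 0.05 level. Fxyd5 stands alone at the upper left, and the other marked genes lie close to the edge of the cloud.

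The gene nearest to the threshold was Fxyd5, which encodes dysadherin, a regulator of the sodium-potassium pump that weakens cell adhesion (chr7:31032722-31042481, minus strand). Its normalised counts were 2151, 1900, 832 and 2154 in DkkMo tumours 24A, 28A, 29A and 31A. It had 0 reads in each of the 4 combination tumours. The groups did not overlap, the DkkMo mean was 1759 ± 630 (SD, n = 4), and against a floor of 3 reads per library the combination tumours were at least 697-fold lower. The difference was -4.59 log2 units (SE 0.73, 95% interval -6.11 to -3.07; limma, unadjusted p 4.29e-06, adjusted p 0.053). The adjusted p was 0.044 after centring of the libraries and ran from 0.052 to 0.35 when single tumours were left out. It was 0.74 without DkkMo tumours 24A and 28A, and 1.00 when all 16 tumours set the spread. It was the only gene with at least 100 reads in each tumour of a group and at most 3 in each tumour of the other. A level of 0 was not confined to the combination group, since the untreated tumour 5A also had none, while the other untreated tumours stood at 836, 11 and 91992 and the tumours given DRB alone at 50734, 14462, 141 and 2083.

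After Fxyd5 the smallest adjusted p was 0.91, and the genes named next did not pass the test. They are the 10 higher and 10 lower genes with the smallest unadjusted p among those whose groups did not overlap, whose difference exceeded 1.5-fold and whose mean lay above that of the median gene. Genes with predicted names were left out of this choice. Rtkn2 led those higher in the combination group (chr10:67979570-68059740, plus strand). Its normalised counts were 617, 65, 283 and 2049 in the DkkMo tumours. In the combination tumours they were 5020, 4432, 3845 and 4667. The combination tumours were thus tightly grouped and the DkkMo tumours were spread over more than an order of magnitude, and the difference was 2.95 log2 units (SE 0.63, adjusted p 0.91, limma). Prrg4, a membrane protein with a gamma-carboxyglutamic acid domain, stood at 145, 1891, 542 and 432 in DkkMo tumours and at 4866, 2235, 3662 and 7076 in combination tumours (difference 2.64, adjusted p 0.94). Vwc2l, a secreted protein with von Willebrand factor C repeats, had means of 1352 ± 818 and 5108 ± 1490 (SD, n = 4 per group; difference 1.91). The Hsp40 co-chaperone Dnajb4 measured 1580, 2552, 618 and 1599 with DkkMo alone. It measured 7988, 5685, 5539 and 3389 with the combination (difference 1.82). The others higher in the combination group were Cyb5r4, a cytochrome b5 reductase (difference 1.99), the transcription initiation factor subunit Taf12 (1.77), the carbonic anhydrase Car1 (1.82), the ubiquinone synthesis enzyme Coq7 (2.20), the phosphoinositide 3-kinase regulatory subunit Pik3r6 (2.65) and the otoconial protein Oc90 (2.34).

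Inpp5a, an inositol trisphosphate 5-phosphatase, led those lower in the combination group (chr7:139389109-139579652, plus strand). It stood at 8812, 7649, 12748 and 10727 in DkkMo tumours and at 3946, 3811, 3419 and 4501 in combination tumours (difference -1.30, SE 0.33, adjusted p 0.94, limma). The exoribonuclease Xrn1, which degrades decapped mRNA, measured 4750, 3607, 8180 and 4707 against 1444, 813, 1411 and 2877 (difference -1.67). Tnrc6b, a scaffold of microRNA silencing, measured 1964, 2279, 1586 and 2700 against 391, 351, 412 and 1071 (difference -1.80). As the rule of choice required, the lowest DkkMo tumour lay above the highest combination tumour in each of these genes. The rest of the lower genes were the G protein subunit Gng11 (difference -1.92), the lipid transfer protein Vps13c (-1.37), the Hippo pathway adaptor Mob1b (-1.82), the kinase Hunk (-1.61), the mitochondrial ribosomal protein Mrps24 (-1.47), the chromatin remodelling subunit Mta3 (-1.91) and the adaptor She (-0.99), and the adjusted p of each was 0.94.

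**Figure D2:**
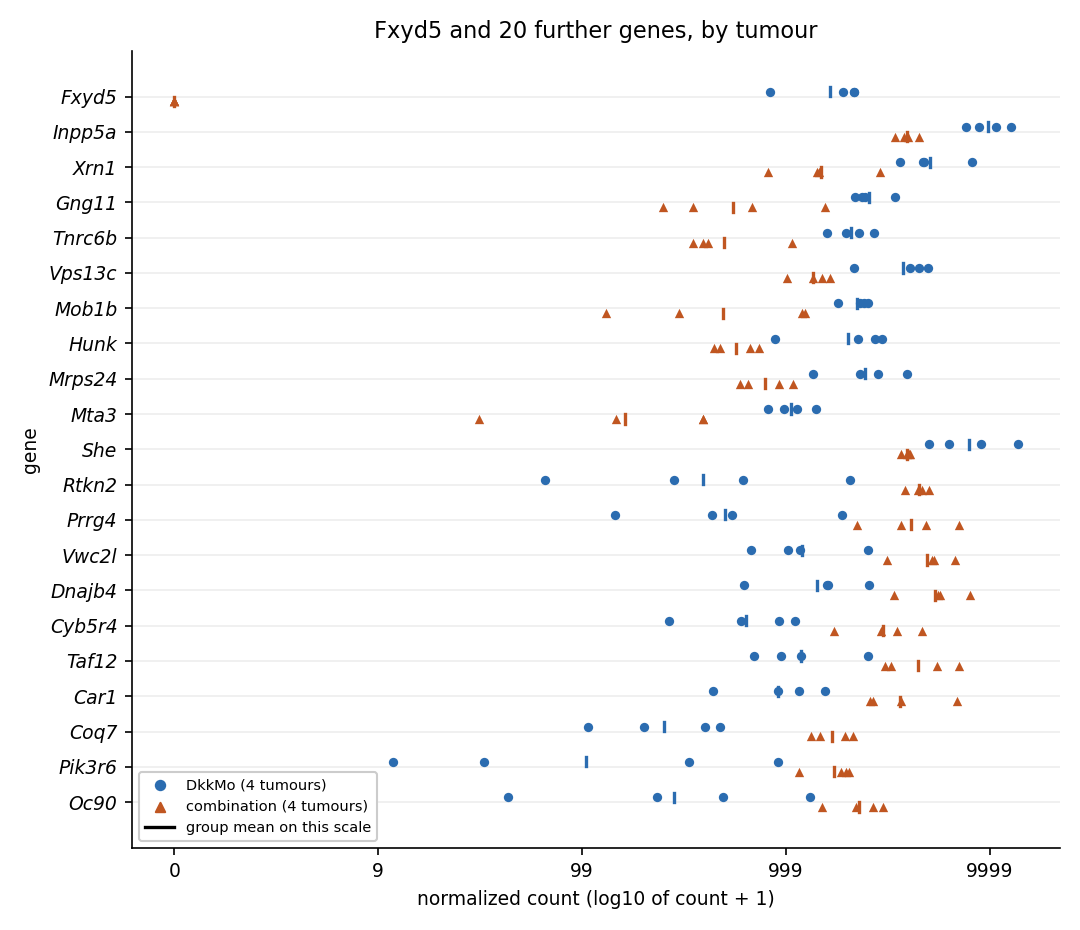
Normalised counts (x axis, log10 of count + 1) of Fxyd5 and of the 20 genes described above (y axis) in 4 DkkMo tumours (blue circles) and 4 combination tumours (orange triangles), with a tick at each group mean on this scale. The groups are apart in every row, which was a condition for choosing the 20 genes. In Rtkn2 the combination tumours sit between 3845 and 5020 while the DkkMo tumours run from 65 to 2049.

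A few other genes with small unadjusted p, which lay below the median level or had overlapping groups, were picked out after their values had been seen. Pdpn, the mucin-type glycoprotein podoplanin that marks osteocytes and lymphatic endothelium, measured 504, 435, 1095 and 268 in DkkMo tumours. It measured 6.15, 2.52, 36.9 and 2.86 in combination tumours, a difference of -2.64 (adjusted p 0.94, limma). Slc5a8, a monocarboxylate transporter, differed by -3.11, with 34A (1774) above DkkMo tumours 24A (1645) and 31A (1181), and the translation factor Eif4a1 by -3.45. Eif4a1 had 0 reads in all 4 combination tumours but also in DkkMo tumour 29A. Nr4a2, an orphan nuclear receptor, was higher in the combination group by 3.04, with means of 77.9 ± 148 and 1119 ± 662 (SD, n = 4 per group). Each of these adjusted p values was 0.94.

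Those genes through which doxorubicin acts and is exported that could be tested did not separate the groups. The topoisomerase II gene Top2a was not among the genes analysed here. Of 20 listed, 12 were tested, 5 were higher and 7 lower in the combination group, 0 had an unadjusted p below 0.05, and the median difference was -0.11 beside -0.02 for all genes. Top2b, the topoisomerase II isoform of non-dividing cells, measured 585, 452, 0 and 0 in DkkMo tumours and 669, 360, 4 and 133 in combination tumours (difference 0.51, 95% interval -1.43 to 2.45). Topoisomerase I, Top1, was at 1668, 415, 1404 and 10 against 85, 0, 170 and 905. The differences of the efflux pump genes were -0.09 for Abcb1a, 0.56 for Abcb1b (95% interval -0.95 to 2.07) and 0.18 for Abcc1. Abcc1 was well measured, at 7051, 9412, 4803 and 11629 against 12180, 11720, 6878 and 6338, and the groups overlapped.

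Targets of p53 showed no common direction. Of 35 listed, 17 were tested, 10 were higher and 7 lower, and the median difference was 0.11. Cdkn1a and the p53 gene Trp53 itself were not among the genes analysed here. At an unadjusted p below 0.05 (limma) 2 of the 17 were lower in the combination group and 0 higher, beside 2.79% and 2.41% of all genes. These members were Mdm2 and Rrm2b. Mdm2 measured 752, 3813, 1902 and 166 in DkkMo tumours. In combination tumours it measured 155, 0, 124 and 252, so that tumour 31A lay among them (difference -2.51, SE 0.87, adjusted p 0.94, limma). Rrm2b, a ribonucleotide reductase subunit used in DNA repair, measured 62, 108, 77 and 730 against 0, 0, 112 and 0 (difference -1.55). Sesn2, a stress-induced regulator of mTORC1, measured 8, 0, 0 and 0 against 3, 101, 79 and 14. Of 26 DNA repair genes tested 15 were higher (median 0.15), of 13 DNA replication genes 8 (median 0.26), of 16 mitosis and spindle genes 10 (median 0.19) and of 15 apoptosis genes 9 (median 0.24; 0.64 without 24A and 28A). When single tumours were left out the medians ran from -0.066 to 0.20 for DNA repair, from -0.089 to 0.41 for mitosis and from -0.19 to 0.19 for the p53 list. Across these 4 lists 1 gene had an unadjusted p below 0.05 (limma), beside 5.2% of all genes. It was the clamp loader subunit Rfc4, which was lower by 1.72 log2 units in the combination group. The proliferation marker Mki67 was detected in 24A and 29A (519 and 371) and in 34A (120), with 0 reads in the other 5 tumours.

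No gene of the oxidative and protein stress lists passed the adjusted threshold. In the NRF2 and glutathione list 10 of 13 tested genes were lower in the combination group (median -0.43, beside 51.7% of all genes lower), and without 24A and 28A 7 of 13 were (median -0.25). Txn1, thioredoxin, measured 302, 218, 3066 and 744 against 58, 42, 321 and 130, and the ferritin light chain Ftl1 measured 369, 762, 1 and 0 against 0, 7, 0 and 0. In the aldehyde dehydrogenase list, which holds Aldh1a1, 12 of 13 were lower with a median of -0.36, and the largest difference in size was -0.67 (Aldh5a1). Aldh1a1 itself measured 692, 456, 494 and 658 in DkkMo tumours and 460, 374, 526 and 323 in combination tumours (difference -0.36, SE 0.66), and the groups overlapped. Without tumours 24A and 28A, 6 of the 13 were lower and the median of the list was 0.14. In the list of the unfolded protein and ATF4 responses 11 of 15 were lower (median -0.25; 0.21 without 24A and 28A). The sensor kinase Ern1 was instead at 166, 1, 0 and 0 against 124, 145, 152 and 213. In the heat shock list 4 of 7 were lower (median -0.70; 0.34 without 24A and 28A). Hspa8, the constitutive Hsp70, measured 839, 564, 0 and 1 with DkkMo alone and had 0 reads in every combination tumour.

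Ribosomal protein genes showed the lowest median of any list, and their reads lay mostly in tumours 24A, 28A and 36A. The list holds 39 ribosomal protein genes and the elongation factor Eef1a1; 25 of the 40 had values and 21 were tested. In the combination group 17 of the 21 were lower (81.0%, beside 51.7% of all genes), and the median difference was -1.29. At an unadjusted p below 0.05 (limma) 5 of the 21 were lower, beside 2.79% of all genes. Some members, such as Rpl23 and Rps3, entered the test with reads in DkkMo tumours alone. Rpl7 and Rps20, which were highest in combination tumour 36A (6528 and 2722), were not tested. The counts of lower genes therefore depend on which members entered, and they are no evidence about the list. Rps3 stood at 1249, 5847, 1 and 0 in DkkMo tumours and had 0 reads in each combination tumour. Rplp0 stood at 997, 3864, 210 and 0 against 0, 82, 0 and 0. Rps7 was at 117, 2228, 0 and 0 against 1, 17730, 0 and 0, so that its highest value was in a combination tumour. Of the 25 genes, 0 lacked reads in 24A and 28A, 6 lacked them in 36A, and 18 or 19 lacked them in each of the other 5 tumours. The level therefore followed the tumour within both groups. Reads on the list amounted to 1009, 2514, 48.5 and 28.0 RPM (reads per 1e+06 reads) in DkkMo tumours and to 41.1, 1635, 31.7 and 11.7 in combination tumours (exact permutation test, two-sided, p 0.51; adjusted over 6 measures 0.62). Without tumours 24A and 28A the median difference of the list was 0.18.

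**Figure D3:**
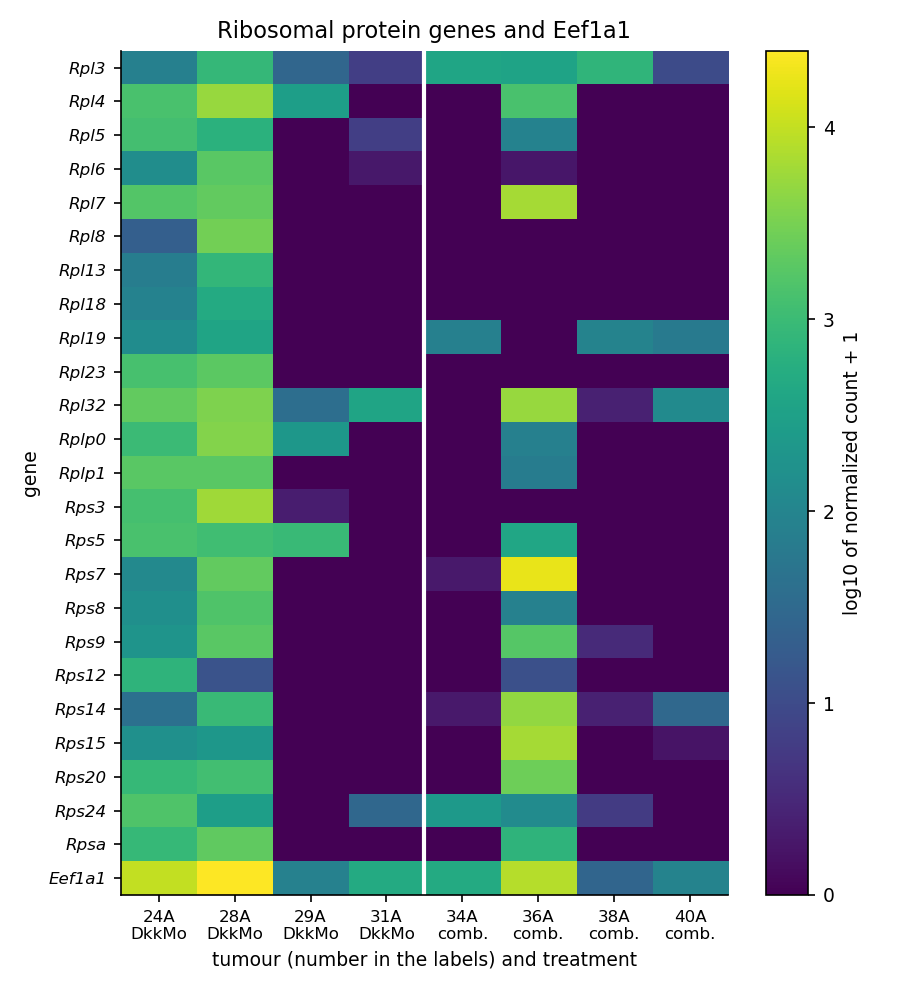
Colour gives the log10 of normalised count + 1 for 24 ribosomal protein genes and Eef1a1 (rows) in 8 tumours (columns, DkkMo left and combination right of the white line). Tumours 24A and 28A hold reads on all 25 genes and 36A on 19, whereas 29A, 31A, 34A, 38A and 40A are dark in most rows.

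Other genes followed the same tumours. Among all 28 pairs of the 8 tumours, 24A and 28A had 94 genes with at least 30 reads in both and at most 3 in each of the other 6, while no other pair had more than 6. Of the 94, 77 were protein-coding, and they included the chaperone Hsp90ab1 (986 and 5065), the cytotoxic granule gene Nkg7 (479 and 1063), the surface glycoprotein Thy1 (832 and 803), the matrix metalloproteinase Mmp3 (48 and 129) and the osteoblast gene Ifitm5 (141 and 169). Col1a1, the main chain of bone collagen, was by contrast between 10372 and 19271 in all 8 tumours, and its difference was 0.15. The steady level of Col1a1 did not extend to Col1a2, the other chain of this collagen. Col1a2 measured 72, 14, 12 and 5 in DkkMo tumours and 488, 54, 313 and 290 in combination tumours. Its groups overlapped (adjusted p 0.94, limma). Whether RNA integrity, cell content or treatment set the level of the 94 genes in 24A and 28A was not tested. Mitochondrially encoded genes were not analysed here. In the respiratory chain list 8 of 9 tested genes were lower (median -0.61; -0.57 without 24A and 28A). Atp5o, a subunit of ATP synthase, measured 1226, 897, 3082 and 639 against 944, 140, 292 and 199 (difference -1.61, adjusted p 0.94, limma).

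Targets and feedback genes of Wnt signalling, the pathway that Dkk-1 inhibits, had a median difference near that of all genes. Their summed reads, which were not tested, did not overlap between the groups. The sums were 1700 to 1840 RPM with DkkMo and 1859 to 2612 RPM with the combination. Of 20 tested, 13 were higher in the combination group, beside 6016 of all 12448 genes (median 0.16). At an unadjusted p below 0.05 (limma) 2 of the 20 were higher, beside 2.41% of all genes. Znrf3, a ubiquitin ligase that removes Frizzled receptors, measured 2388, 3370, 4854 and 5655 in DkkMo tumours. In combination tumours it measured 10914, 13494, 6936 and 5458, with 40A inside the DkkMo range (difference 1.13, SE 0.39, adjusted p 0.94, limma). The Dishevelled antagonist Nkd1 measured 63, 30, 485 and 5 against 81, 1421, 1362 and 926 (difference 2.09). Lef1 measured 4260, 4189, 4196 and 2730 against 4543, 8765, 7860 and 3494, and the groups overlapped. Collagen and matrix genes were 17 higher and 14 lower of 31 (median 0.07), and matrix proteases and their inhibitors 9 and 9 of 18 (median 0.01). The osteoblast list had 4 higher and 4 lower of 8 (median -0.15; 0.013 without 24A and 28A). Its master regulator Runx2 measured 4091, 3245, 5438 and 2550 against 2066, 1740, 2939 and 3904. Osteopontin, Spp1, varied more within each group than between them, at 33311, 53392, 2677 and 262 against 684, 78591, 438 and 819. The chondrocyte list had 7 of 11 higher (median 0.22) and the osteoclast list 4 of 6 (median 0.22), and without 24A and 28A these medians were -0.0051 and -0.25.

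**Figure D4:**
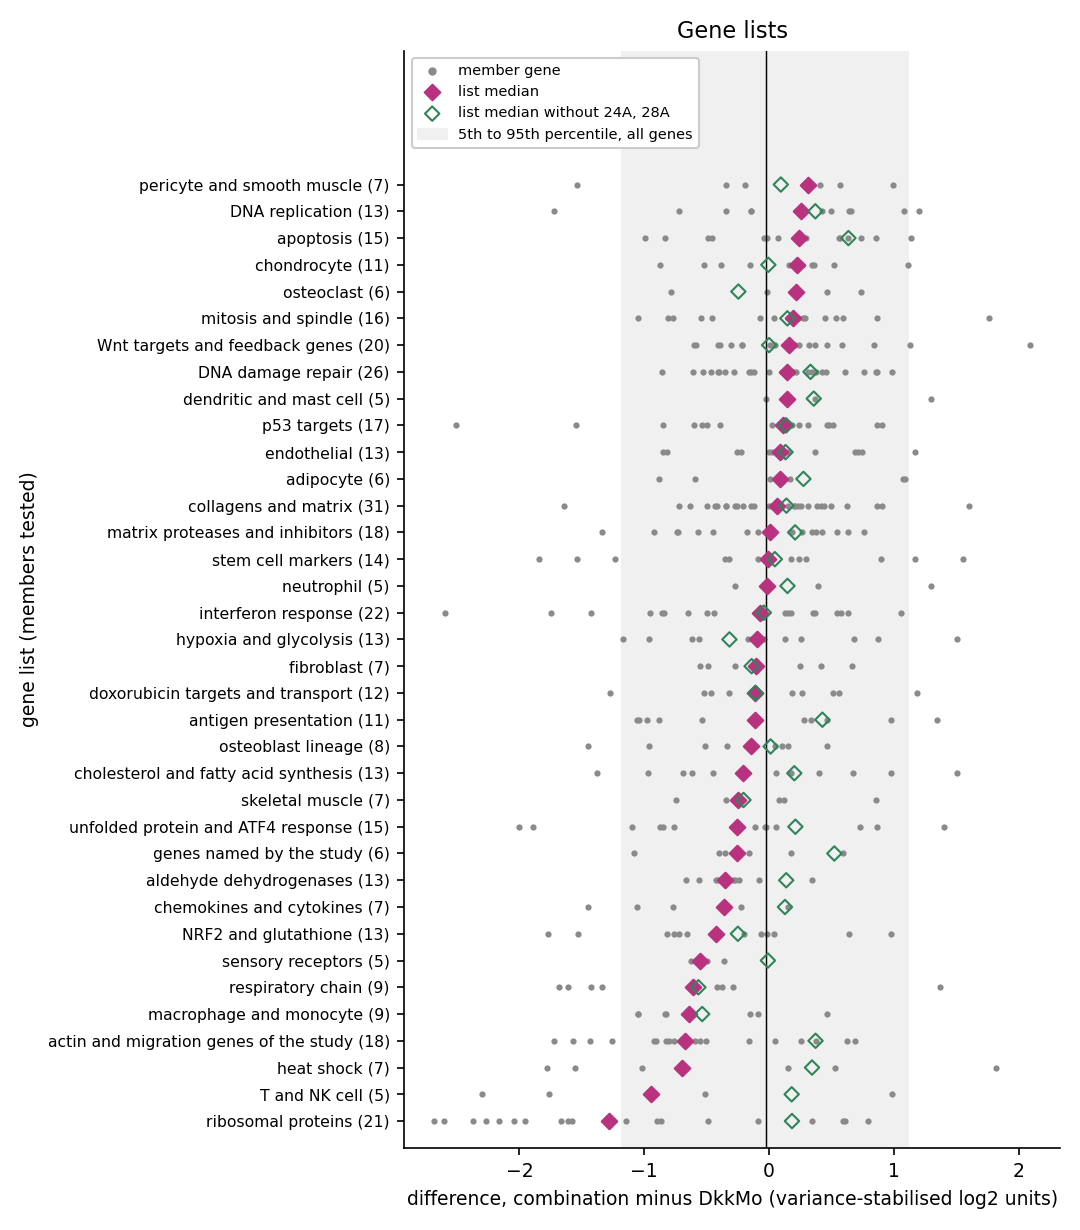
Difference between combination and DkkMo tumours (x axis, variance-stabilised log2 units) for the members of each list with at least 5 genes tested (y axis, number tested in brackets). Grey points are genes, filled diamonds list medians, open diamonds the medians without tumours 24A and 28A, the grey band the 5th to 95th percentile of all genes and the line their median of -0.02; the ribosomal protein median moves from -1.29 to 0.18 across the 2 settings.

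A list of 9 genes held 8 that the study names in its text and Trim30a, which that text does not name, and since the study chose genes partly on these tumours their direction is no independent evidence. Of the 9, 6 were tested, 0 had an unadjusted p below 0.05 and 1 had groups without overlap, beside 2.96% of all genes. Setd7, a lysine methyltransferase, measured 474, 409, 675 and 281 in DkkMo tumours. It measured 269, 107, 262 and 41 in combination tumours, so that the groups did not overlap (difference -1.08, 95% interval -2.62 to 0.47, adjusted p 0.94, limma). The methyltransferase Nsd1 measured 291, 201, 0 and 19 against 108, 1, 94 and 8. Hsd17b4, a peroxisomal enzyme of fatty acid oxidation, measured 0, 7, 27 and 0 against 202, 72, 1 and 0. Arpc2, a subunit of the actin-nucleating Arp2/3 complex, measured 68, 614, 0 and 1 against 150, 0, 178 and 2, and its difference of -0.16 turned to 0.97 without 24A and 28A. Trim30a, an interferon-inducible gene, measured 156016 to 609047 against 175768 to 360375, but its counts were within 5.11% of those of its neighbour Trim12c in every tumour, so the reads of these paralogues cannot be separated. In the wider actin and migration list 13 of 18 were lower (median -0.67; 0.37 without 24A and 28A). Wasl, an activator of Arp2/3, measured 177, 213, 0 and 591 against 3, 5, 0 and 0 (difference -1.72). In the stem cell marker list 7 of 14 were higher (median -0.01). Alcam, the adhesion molecule CD166, measured 3383, 2985, 1234 and 1888 against 3783, 15837, 8224 and 4294 without overlap (difference 1.56, adjusted p 0.94, limma), while Nt5e, the ectonucleotidase CD73, was at 850, 2219, 2198 and 1195 against 120, 264, 692 and 1116 (difference -1.54).

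Several defining markers of host cells were not among the genes analysed here. For macrophages and monocytes 9 of 22 markers were tested and 8 were lower in the combination group, with a median of -0.64 (-0.53 without 24A and 28A), while 0 had an unadjusted p below 0.05. Adgre1, which encodes the macrophage antigen F4/80, measured 3061, 1853, 4159 and 3328 against 3181, 835, 1399 and 3067. The growth factor receptor gene Csf1r measured 136, 144, 32 and 103 against 4, 3, 49 and 50. Reads on the macrophage list were 506 to 875 RPM in DkkMo tumours and 446 to 729 in combination tumours (exact permutation test, two-sided, p 0.31). For T and NK cells 4 of 5 tested markers were lower (median -0.95; 0.18 without 24A and 28A). The perforin gene Prf1 measured 2174, 2218, 0 and 0 against 19, 0, 0 and 0, so it too followed 24A and 28A. Reads on erythroid markers did not overlap between the groups, alone among the 6 library measures tested, at 103, 33.4, 51.2 and 34.4 RPM in DkkMo tumours and 24.95, 23.3, 26.8 and 28.6 in combination tumours. The exact permutation p of 0.029 (two-sided) is the smallest that 4 against 4 tumours allow and was 0.17 after adjustment over 6 measures. The sum rests on 4 of 13 markers, none of them a globin gene. Among the 42 lists, untested sums over some others did not overlap either. They were DNA repair (758 to 875 RPM with DkkMo and 901 to 1206 RPM with the combination), Wnt targets (1700 to 1840 and 1859 to 2612 RPM) and sensory receptors (229 to 285 and 101 to 218 RPM). The 2.96% without overlap is a share of single genes and is not a like measure for such sums.

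Of interferon response genes 13 of 22 were lower (median -0.07), and Ifitm1, a membrane protein that restricts viral entry, measured 446, 1328, 0 and 512 against 0 reads in each combination tumour (difference -2.60, adjusted p 0.94, limma). Chemokines and cytokines were lower in 6 of 7 (median -0.36; 0.13 without 24A and 28A) and antigen presentation genes in 6 of 11 (median -0.11; 0.43 without 24A and 28A). Hypoxia and glycolysis genes were lower in 8 of 13 (median -0.10). In cholesterol and fatty acid synthesis 6 of 13 were higher (median -0.20; 0.20 without 24A and 28A). The remaining cell lists had medians of 0.09 for endothelium (8 of 13 higher), 0.31 for pericytes and smooth muscle (4 of 7), -0.11 for fibroblasts (3 of 7), 0.09 for adipocytes (4 of 6), -0.24 for skeletal muscle (3 of 7), -0.02 for neutrophils (2 of 5), 0.14 for dendritic and mast cells (4 of 5), 0.07 for B and plasma cells (2 of 3), 0.16 for platelets (3 of 4; -0.52 without 24A and 28A), 0.03 for erythroid cells (2 of 4), -0.35 for skin (0 of 3) and 0.30 for nerve (4 of 4). Pmp22, a protein of peripheral myelin that fibroblasts also express, measured 83, 60, 126 and 18 against 589, 741, 829 and 221, and its groups did not overlap (difference 1.91, adjusted p 0.94, limma). Olfactory and vomeronasal receptor genes were lower in 5 of 5 (median -0.55; -0.0085 without 24A and 28A), and Vmn1r4 stood at 3582 to 5328 in DkkMo tumours and at 1957 to 3525 in combination tumours, without overlap (difference -0.62, adjusted p 0.94, limma).

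To ask whether DRB acted differently with and without DkkMo, the difference between combination and DkkMo tumours was set against that between DRB and untreated (NT) tumours in a model of all 16 tumours. The libraries of this model were not alike. Reads ran from 53.8 to 125 megareads in NT tumours and from 85.3 to 106 in DRB tumours, deeper than in the 8 tumours above. The 10 leading genes held 8.51 to 38.7% of reads in NT tumours and 46.7 to 73.5% in DRB tumours. In the 8 tumours above they held 13.5 to 24.2%. Whether these differences shaped the interaction was not tested. The interaction passed the adjusted threshold in 0 of 12595 genes, with 853 at an unadjusted p below 0.05 (6.77%) and a smallest adjusted p of 0.59 (limma). Its 95% interval had a median half-width of 2.58 log2 units, and its median of -0.31 became 0.08 when the libraries were centred. Of the 853 genes 295 were higher, against 478 of 779 after centring and 1114 of 1202 with voom, so the share of higher genes among these depended on the scaling. DRB against NT alone gave 0 genes past the adjusted threshold and 1500 at an unadjusted p below 0.05. The median difference of DRB minus NT was 0.28, and -0.04 when the libraries were centred. Across 12448 genes the uncentred differences of the 2 comparisons, which share no tumour, correlated at Pearson's r -0.12 and Spearman's rho -0.11. The sign was the same for 45.8% of genes, a description with no test. Predicted genes apart, the 3 genes per direction with the smallest interaction p are described here. Taf12 stood at 8028, 3881, 13851 and 8013 in NT tumours and at 2853, 31, 727 and 1359 in DRB tumours. With DkkMo it stood at 941, 1189, 696 and 2523, and with the combination at 7043, 5525, 3267 and 3047, giving an interaction of 4.96 (SE 1.07, adjusted p 0.59, limma). The otoconial gene Oc90 (interaction 5.07) and the GTPase-activating protein gene Arhgap25 (4.43) had interactions of the same sign, although Arhgap25 in DkkMo tumour 31A (13885) exceeded every combination tumour (5018 to 9062). Spaca1, a sperm acrosome gene, ran the opposite way, with 367, 75, 428 and 2020 in NT tumours and 190235, 1806, 14547 and 77357 in DRB tumours. It was at 159, 797, 953 and 2 with DkkMo and at 8, 14, 6 and 2 with the combination (interaction -7.42). Mgat4a, a Golgi glycosyltransferase (-3.99), and the semaphorin receptor Plxna2 (-3.48) had interactions of this sign too, with overlap between DkkMo and combination tumours. None of the 6 passed the adjusted test.

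**Figure D5:**
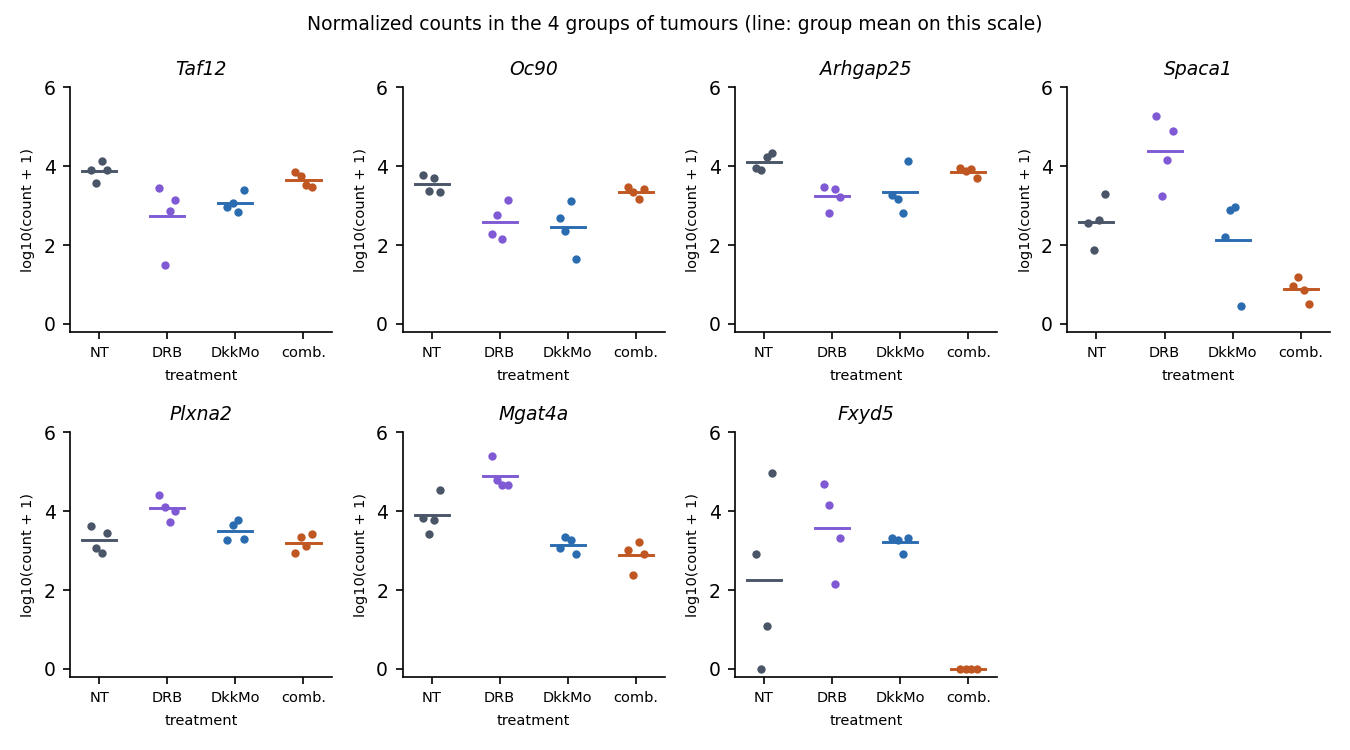
Log10 of normalised count + 1 (y axis) in NT, DRB, DkkMo and combination tumours (x axis, 4 points per group, line at the group mean on this scale) for the 3 genes per direction with the smallest interaction p, predicted genes left out, and for Fxyd5. In Taf12 the DkkMo tumours lie lower than the NT and combination tumours, and in Fxyd5 all 4 combination tumours and 1 NT tumour are at 0.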

How the data were processed

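Values were taken from the authors' deposited tumour table of variance-stabilised log2 values for 16 tumours and 12595 genes; the table of cultured cells was not used. The submitters' processing notes name HISAT2 2.1.0, SAMtools 1.9, Subread 2.0.0 with featureCounts, StringTie, DESeq2 and the build GRCm38. Groups followed the treatment labels. The lowest value (6.23) stands for 0 reads, so the transformation was inverted to normalised counts and whole reads (96.9 to 99.6% of non-zero values per tumour lay within 0.05 of a whole number). Genes above the lowest value in at least 4 of the 8 tumours (12448) entered a limma 3.58.1 model (R 4.3.3) with 1 mean per group and a variance trend; adjustment was by Benjamini-Hochberg, and a gene was called at an adjusted p below 0.05 and more than 1.5-fold. Some genes with reads in fewer than 4 tumours were also tested, such as Rpl23 with reads in 24A and 28A alone. The model used the 8 tumours alone, since tumours of the other groups had varied more in earlier results. Differences are on the variance-stabilised log2 scale, which understates changes of genes with few reads. Library measures were compared by exact permutation.

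Gene lists (42) were matched by exact symbol; the members and lists were chosen with earlier results of these data known. Named genes were the 10 with the largest change in each direction among called genes without overlap, filled, since none was called, from genes by unadjusted p with more than 1.5-fold change, no overlap and a mean above the median gene; up to 4 members per list by unadjusted p; the genes the study named and targets and transporters of doxorubicin; and 3 genes per direction of the interaction. Genes with predicted names were left out of the 10 per direction and of the 3 per direction of the interaction. Pdpn, Slc5a8, Nr4a2, Eif4a1 and Fxyd5 lay outside the rule for named genes. Scripts were tested on simulated data. No label gives an extraction or sequencing batch. Each tumour has its own number in the labels, which do not state that each came from a separate mouse, and p-values measure the spread between these tumours. The 95% intervals come from the same model and reflect the spread between tumours; the floor of 3 reads covers counting error only. Coordinates are from GENCODE M21, which matched 97.5% of the genes.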

Additional observations from a re-analysis of the deposited data

Results flagged for a closer look

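Among 84 groups of 4 tumours examined for a single extreme value, 4 had one, and chance gives about 1 in 20. Reads on the ribosomal protein list in combination tumour 36A (1635 RPM) were far above the other combination tumours (11.7 to 41.1 RPM). Reads on the skeletal muscle list in combination tumour 40A (594 RPM) exceeded those of the other combination tumours (266 to 305) but lay close to DkkMo tumour 31A (562). Tnrc6b was highest in combination tumour 40A, at 10.2 on the variance-stabilised log2 scale (normalised count 1071 beside 351 to 412). Fxyd5 was lowest in DkkMo tumour 29A among the DkkMo tumours, at 9.93 on the same scale (normalised count 832 beside 1900 to 2154).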

How the results depend on the processing

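The count of genes called between combination and DkkMo tumours was 0 as reported and became 1 after centring of the libraries, with voom and the table's size factors, with array weights, without the variance trend and at an adjusted p below 0.1; the gene was Fxyd5 each time, whose difference was -4.54 after centring. It stayed 0 in every other alternative, with 505 to 898 genes at an unadjusted p below 0.05 when single tumours were left out (range of calls 0 to 0). With all 16 tumours in the model 150 genes had an unadjusted p below 0.05. The interaction gave 1 called gene with array weights (Spaca1) and 0 to 1 when single tumours were left out, the 1 being Arhgap25 without DkkMo tumour 31A. Leaving out 24A and 28A was chosen after seeing the data; it turned Nsd1 to 0.59 and Arpc2 to 0.97 and moved list medians to 0.43 (antigen presentation), 0.52 (genes of the study), -0.25 (osteoclast) and -0.52 (platelet), besides 0.18 (ribosomal proteins and T and NK cells), 0.37 (actin and migration), 0.34 (heat shock) and 0.64 (apoptosis). Arpc2 was 0.015 on log2 of count plus 1 and Trim30a -0.090 after quantile normalisation. Leaving out single tumours gave ranges of -0.56 to 0.55 for Arpc2, -0.024 to 0.63 for Trim30a, -0.012 to 1.09 for Top2b, -0.51 to 0.19 for Abcb1a and -0.045 to 0.37 for Abcc1. Medians on voom and log2 of count plus 1 were -4.53 and -3.86 for ribosomal proteins, -2.05 and -2.01 for the respiratory chain, -1.48 and -1.40 for chemokines and 1.10 and 0.97 for nerve, scales on which genes without reads weigh more. Group differences in reads ran from -5.54 to 2.89 megareads, in ribosomal reads from -872 to 68.0 RPM and in erythroid reads from -36.9 to -13.8 RPM. For erythroid reads the exact permutation p was no longer below 0.05 without any single combination tumour, when the groups were of unequal size. The difference itself then stayed between -30.4 and -28.7 RPM, so the change in p does not show that it rested on 1 tumour. No paired analysis was possible because the tumours carry individual numbers that the groups do not share. The cause of these changes was not tested. The effect of depth was not tested.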
